A study of Mus musculus with 18 samples.

Results

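The Eph receptors and their ephrin ligands, the Slits and their Robo receptors, and the netrins and their receptors are the axon guidance genes described here. The rule names 36 genes of these families and uses no measured value. Of these, 35 had a transcript cluster (the set of probes that reads 1 gene) annotated to a single symbol, out of 22180 genes so covered on the Affymetrix Mouse Gene 2.0 ST array. The remaining gene, *Ephb2*, was not analysed here. *Ephb1* had several clusters, and the brightest was used.

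RNA came from P3 cerebella and from granule cell cultures, 18 arrays in all, of which 16 entered the comparisons. The *Dot1l*-cKO group consisted of 3 mice carrying floxed *Dot1l* (exon 2) and *Atoh1*-Cre, which deletes *Dot1l* in the granule cell lineage and other *Atoh1*-derived cells but leaves it in the other cells of the cerebellum. The control group, also 3 mice, carried floxed *Dot1l* alleles too but no Cre, on the same C57BL6/J background. For 1 of these controls the labels disagree on whether 1 or both alleles were floxed. Cerebellar granule neuron progenitors (CGNP) from NMRI mice of P7, cultured with SHH, received SGC0946, an inhibitor of the H3K79 methyltransferase DOT1L, or the solvent DMSO for 4 h, with 3 arrays each. Differentiating cerebellar granule neurons (CGN), also from NMRI mice and cultured with FBS, received SGC0946 or DMSO for 44 h, with 2 arrays each. The dose was 5 µM by the methods and 5 mM by the labels. The methods describe a single schedule for CGN of P7 mice, whereas the labels give 5 and 7 days in vitro for the SGC0946 arrays, 1 of them at an age of P9, and 2 and 4 days for the DMSO arrays. The labelled day rises by 1 from each CGN array to the next in order of array number, while all carry 44 h of treatment. Whether these are true days in culture is not known from the sources. By the labels, treatment and days in culture therefore cannot be told apart in CGN. The 3 CGNP arrays of each treatment came from mouse 29, mouse 30 and both, so that 2 mice stood behind them. The labels give each CGN array a mouse number of its own that repeats the name of the array, and no other source states that separate mice were used, so p-values there may measure the spread between cultures only.

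Eph receptors are receptor tyrosine kinases that bind membrane-anchored ephrins on neighbouring cells, mostly EphA with ephrin-A and EphB with ephrin-B, and they repel or attach growing processes and migrating cells. Slits are secreted repellents read by Robo receptors. Netrins are secreted cues that attract axons through DCC and repel them where UNC5 receptors take part. In the developing cerebellum these systems guide granule cells and their parallel fibres as the cells leave the external granular layer.

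Levels are given as deposited log2 signals, so a difference of 1 is a doubling. Signals of different genes were not compared. Olfactory receptor genes served as a measure of the signal of unused genes. At or below their 95th percentile (5.16 in cerebella, 5.04 in CGNP and 4.87 in CGN) lay 3 guidance genes in both groups of cerebella, namely *Epha1*, *Epha2* and *Robo3*. In CGNP 9 guidance genes lay within that range with either treatment, and in CGN also 9. *Epha1*, *Epha2*, *Epha6*, *Epha8*, *Slit1* and *Robo3* belonged to those in both kinds of culture. *Slit2*, *Slit3* and *Unc5a* completed the number in CGNP, and *Epha10*, *Ephb4* and *Efna4* in CGN. For these genes a small difference or none says little about the RNA.

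The deleted gene itself was not lower as a whole cluster. *Dot1l* read 9.24, 9.43 and 9.01 in *Dot1l*-cKO cerebella, against 9.05, 9.13 and 9.05 in control cerebella, and a signal over the whole gene and all cells says little about exon 2. *Atoh1*, the transcription factor of granule progenitors, read 8.38, 8.17 and 7.94 in *Dot1l*-cKO cerebella, against 9.18, 8.73 and 8.96 in control cerebella. Marker lists of other cell types also differed between the groups. All 9 granule progenitor markers had a lower mean in *Dot1l*-cKO cerebella (median log2 change -0.41, 5 at an unadjusted p of at most 0.05). All 8 interneuron and unipolar brush cell markers had a higher one (median 0.58, 5 at that cut-off), and all 9 skeletal muscle genes did as well (median 0.64, 7 at that cut-off). All 6 microglial markers had a higher mean too (median 0.41, 2 at that cut-off). *Dot1l*-cKO replicate 3 stood apart in *Ttr*, a gene of the choroid plexus (10.99, against 7.10 to 7.88 in the other 5 cerebella). Of the 4 choroid plexus markers 3 were within the olfactory receptor range in both groups. Among the interneuron and unipolar brush cell markers this array was the highest of all cerebella in *Sst*, *Lmx1a* and *Slc6a5*. It was the lowest of the 3 *Dot1l*-cKO arrays in *Gad1* (6.96, against 7.83 and 7.84), *Pax2* and *Slc32a1*, and neither in *Gad2* and *Eomes*. In CGNP, *Atoh1* read 5.48, 5.38 and 5.60 with SGC0946, against 5.42, 5.02 and 5.35 with DMSO, close to the olfactory receptor limit. *Gli1*, a target of Sonic hedgehog in dividing progenitors, was the 1 of the 9 progenitor markers within that range in CGNP. The mean level of the list there lay between 8.21 and 8.33 with SGC0946 and between 8.10 and 8.24 with DMSO. In CGN 3 of the 9 progenitor markers were within the range with either treatment. In bulk RNA, fewer cells of a type and less RNA per cell cannot be told apart.

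Deletion of *Dot1l* in the *Atoh1* lineage left 0 of the 35 guidance genes past the adjusted test (limma with Benjamini-Hochberg adjustment over all genes), where 5 of all genes, or 0.0225%, passed. At the unadjusted p of at most 0.05 that the study used, 5 guidance genes were counted, against 8.69% of all genes: 3 were higher (background 4.09%) and 2 lower (background 4.6%). The higher ones were *Efna5*, *Slit1* and *Robo1*, and the lower ones the 2 netrins *Ntn4* and *Ntn1*. The median log2 difference was 0.02 over the 35 genes and -0.01 over all genes, with 19 guidance genes of higher and 16 of lower mean (47.9% of all genes had a higher one). After a further quantile normalization, which leaves the arrays with identical distributions, 8 guidance genes were at the cut-off, with *Efna2*, *Efna4* and *Dcc* in addition to these 5.

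**Figure D1:**
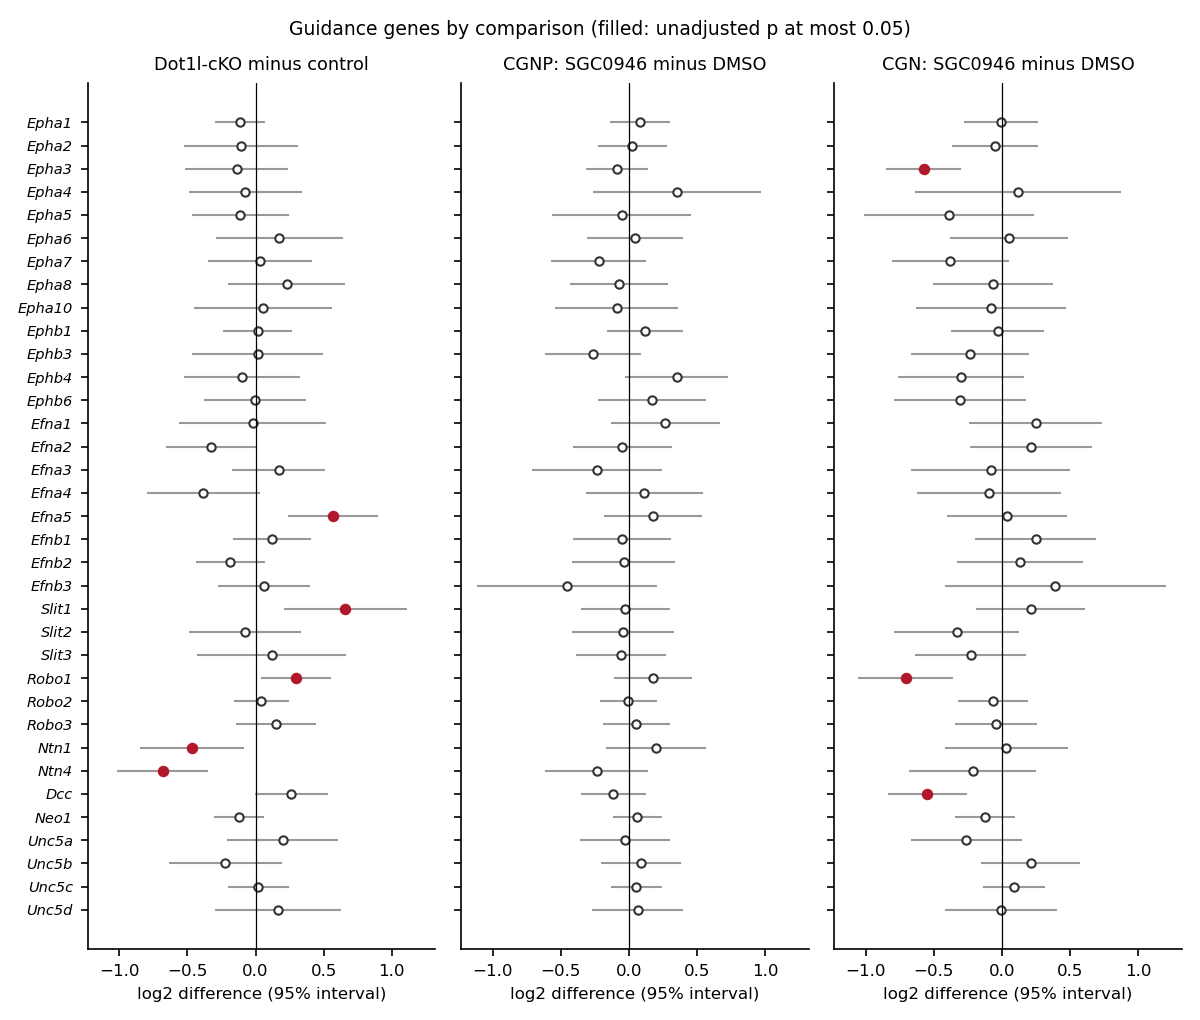
Log2 difference of each of the 35 guidance genes (rows, ordered by family) in 3 comparisons, with the 95% interval from limma as a line. Filled points mark an unadjusted p of at most 0.05: 5 genes in *Dot1l*-cKO cerebella, 0 in CGNP and 3 in CGN, where all 3 lie below 0.

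Among the ligands of Eph receptors, *Efna5* was the one at the cut-off. Ephrin-A5 is a membrane-anchored ligand of EphA receptors. *Efna5* read 8.76, 8.43 and 8.36 in *Dot1l*-cKO cerebella, against 8.11, 7.87 and 7.86 in control cerebella. Each *Dot1l*-cKO array lay above each control array (log2 change 0.57 ± 0.15 SE, limma adjusted p = 0.367). Of the other 7 ephrins 4 had a lower and 3 a higher mean, none at the cut-off. *Efna2* read 7.34, 7.46 and 7.19 in *Dot1l*-cKO cerebella, against 7.70, 7.70 and 7.57 in control cerebella, without overlap, and missed the cut-off (log2 change -0.33 ± 0.15 SE, adjusted p = 0.580 by limma). *Efna4* read 6.10, 5.87 and 5.86 in *Dot1l*-cKO cerebella, against 6.51, 6.15 and 6.31 in control cerebella, also without overlap and short of the cut-off (-0.38 ± 0.19 SE). *Efnb2* gave 9.55, 9.46 and 9.23 in *Dot1l*-cKO cerebella, against 9.62, 9.60 and 9.57 in control cerebella, a log2 difference of -0.19. *Efna3*, *Efnb1* and *Efnb3* had a higher mean (differences between 0.06 and 0.17), and *Efna1* differed by -0.02. The 9 EphA receptors differed by between -0.14 and 0.23 and the 4 EphB receptors by between -0.10 and 0.02 on the log2 scale, and none of the 13 receptors was without overlap between the groups.

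*Slit1* and *Robo1* were the members of the Slit and Robo families at the cut-off. The study named both from these same arrays, so their array values are not independent evidence here. The study also measured both by quantitative PCR in *Dot1l*-cKO and control cerebella. There it reported *Robo1* as significantly higher and did not list *Slit1* among the higher genes. It further reported a changed level of dimethylated H3K79 at *Robo1* in CGN with the inhibitor. *Slit1*, a secreted repellent, read 6.52, 6.58 and 6.87 in *Dot1l*-cKO cerebella, against 6.32, 5.77 and 5.91 in control cerebella. The highest array was *Dot1l*-cKO replicate 3, in which *Ttr* stood apart, and without it the log2 change was 0.55 and still at the cut-off (unadjusted p = 0.034 by limma). The lowest *Dot1l*-cKO array exceeded the highest control array by a small margin (log2 change 0.66 ± 0.21 SE, limma adjusted p = 0.417). *Robo1*, a Slit receptor, gave 9.33, 9.56 and 9.55 in *Dot1l*-cKO cerebella, against 9.28, 9.18 and 9.09 in control cerebella. Its groups did not overlap either (log2 change 0.30 ± 0.12 SE, limma adjusted p = 0.509), but it missed the unadjusted cut-off without *Dot1l*-cKO replicate 2 or 3 or control replicate 2 or 3 (log2 changes between 0.25 and 0.30, unadjusted p between 0.0582 and 0.0945 by limma). *Slit2*, *Slit3*, *Robo2* and *Robo3* differed by between -0.08 and 0.15, with overlap.

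Both netrins among the 35 genes were at the cut-off with a lower mean. *Ntn4*, a secreted netrin of basement membranes, read 7.47, 7.20 and 7.56 in *Dot1l*-cKO cerebella, against 8.11, 8.18 and 7.98 in control cerebella. This was the largest difference among the 35 genes in these cerebella, with a gap of 0.42 between the groups (log2 change -0.68 ± 0.15 SE, limma adjusted p = 0.261). *Ntn1*, the classical axon attractant, read 7.81, 7.17 and 7.55 in *Dot1l*-cKO cerebella, against 7.98, 7.92 and 8.03 in control cerebella. The *Dot1l*-cKO arrays spread over a range of 0.64 and the control arrays over 0.11 (log2 change -0.47 ± 0.18 SE, limma adjusted p = 0.487). *Ntn1* missed the cut-off without *Dot1l*-cKO replicate 2 (-0.30), without control replicate 3 (-0.44) and with the ordinary variance. The related *Ntn3* (-0.10), *Ntng1* (-0.03) and *Ntng2* (0.10), counted among the partners, did not reach it. Of the netrin receptors, *Dcc*, the receptor for attraction, read 10.53, 10.84 and 10.49 in *Dot1l*-cKO cerebella, against 10.18, 10.50 and 10.40 in control cerebella, with overlap (log2 change 0.26 ± 0.12 SE, adjusted p = 0.584 by limma). *Neo1*, a relative of DCC, read 10.87, 10.97 and 10.99 in *Dot1l*-cKO cerebella, against 11.05, 11.08 and 11.05 in control cerebella, a difference of -0.12. The 4 Unc5 receptors differed by between -0.22 and 0.20. No overlap was found for 9 of the 35 genes, 3 higher and 6 lower, against 14% of all genes (6.28% higher and 7.75% lower).

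The marker lists differed alongside these values. The mean log2 level of the progenitor list lay between 9.30 and 9.54 in *Dot1l*-cKO cerebella and between 9.77 and 9.90 in control cerebella, and the interneuron and unipolar brush cell list between 7.70 and 7.92 in *Dot1l*-cKO cerebella and at most 7.41 in control cerebella. Skeletal muscle genes lay between 5.45 and 5.73 in *Dot1l*-cKO cerebella and between 4.49 and 4.63 in control cerebella, where 8 of the 9 were within the olfactory receptor range. The part of these lists in the guidance gene values was not tested.

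**Figure D2:**
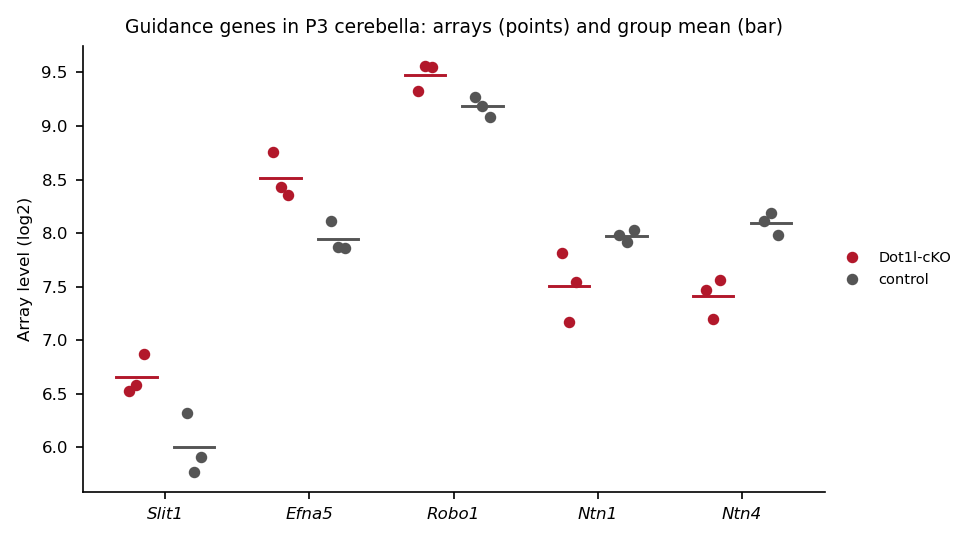
Log2 array level (vertical axis) of the 5 guidance genes at the unadjusted cut-off in P3 cerebella, with a point per mouse and a bar at the group mean, *Dot1l*-cKO left of control. In *Slit1*, *Efna5* and *Robo1* the 3 *Dot1l*-cKO points lie above all control points, and in *Ntn1* and *Ntn4* below them.

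In CGNP, 4 h of SGC0946 moved no guidance gene past either limit. By limma 0 of 35 passed the adjusted test (7 of all genes did, 0.0316%) and 0 reached an unadjusted p of 0.05, against 4.08% of all genes. The median log2 difference was -0.0043 over the 35 genes and 0.0038 over all genes. Only *Robo1* and *Ntn1* were without overlap, both higher, 2 of 35 against 9.78% of all genes in either direction and 5.3% in the higher one. *Robo1* read 8.73, 8.76 and 8.77 with SGC0946, against 8.52, 8.51 and 8.70 with DMSO, and every treated array lay above every DMSO array (log2 change 0.18 ± 0.13 SE, 95% interval -0.11 to 0.46). *Ntn1* read 7.44, 7.42 and 7.34 with SGC0946, against 6.97, 7.33 and 7.31 with DMSO, with a gap of 0.02 between the groups (log2 change 0.20 ± 0.17 SE). The precision was lowest for *Epha4* and *Efnb3*, with 95% intervals of -0.26 to 0.97 and of -1.12 to 0.21. With 1 array left out in turn, between 0 and 2 guidance genes reached the unadjusted cut-off: *Ephb3* without the DMSO array of both mice, *Ephb4* without the DMSO array of mouse 29, *Ephb4* and *Ntn4* without the SGC0946 array of mouse 29, and *Epha8* and *Efna3* without the SGC0946 array of mouse 30.

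In CGN, 44 h of SGC0946 went with lower *Epha3*, *Robo1* and *Dcc*. They were the 3 guidance genes at the unadjusted cut-off, all lower, against 7.48% of all genes in either direction and 4.08% in the lower one. None of the 35 passed the adjusted test by limma, where 34 of all genes, or 0.153%, did. Over the 35 genes 23 had a lower and 12 a higher mean (48.7% of all genes had a higher one), with a median of -0.06 against -0.01 over all genes. With 2 arrays a group, 14 of 35 were without overlap, 10 lower and 4 higher, and the shares over all genes were 17.1% lower, 17% higher and 34.1% in all.

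*Epha3* encodes an EphA receptor. It read 9.81 and 9.81 with SGC0946, against 10.50 and 10.27 with DMSO. Both treated arrays lay below both DMSO arrays (log2 change -0.57 ± 0.13 SE, limma adjusted p = 0.125). *Robo1* read 7.48 and 7.66 with SGC0946, against 8.43 and 8.11 with DMSO. Here too the pairs did not overlap (log2 change -0.71 ± 0.16 SE, limma adjusted p = 0.145), and this was the largest difference among the guidance genes in CGN. The study also listed *Robo1* as lower with SGC0946 from its CGN arrays. *Dcc* gave 7.86 and 7.77 with SGC0946, against 8.32 and 8.41 with DMSO, with groups farther apart than the arrays of either group (log2 change -0.55 ± 0.14 SE, limma adjusted p = 0.190). With 1 array left out in turn, each of the 3 stayed at the unadjusted cut-off, and without the first DMSO array *Efnb3* and *Slit3* joined them, 5 in all.

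Their relatives were nearer to 0. *Epha7* read 8.45 and 8.57 with SGC0946, against 9.02 and 8.76 with DMSO, without overlap and short of the cut-off (log2 change -0.38 ± 0.20 SE, 95% interval -0.81 to 0.05). *Epha5* differed by -0.39 with a wider interval (-1.01 to 0.24). All 4 EphB receptors had a lower mean (between -0.31 and -0.03), and all 3 ephrins-B a higher one (between 0.13 and 0.39). None of these 7 reached the cut-off. *Robo2* gave 11.02 and 10.91 with SGC0946, against 11.05 and 11.02 with DMSO, a difference of -0.06 ± 0.12 SE. The netrin receptors *Neo1*, *Unc5a*, *Unc5b*, *Unc5c* and *Unc5d* lay between -0.26 and 0.21. The difference between *Robo1* and its relatives, or between *Dcc* and its own, was not tested.

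Marker lists of several cell types differed with SGC0946 in CGN as well. All 7 genes of pericytes, smooth muscle and meninges had a lower mean (median -0.54, 5 at the unadjusted cut-off), with a mean list level between 6.83 and 7.47 with SGC0946 and between 7.63 and 7.88 with DMSO. All 7 oligodendrocyte lineage genes were lower as well (median -0.45, 4 at that cut-off), between 6.42 and 6.45 with SGC0946 and between 6.86 and 6.94 with DMSO. Interneuron and unipolar brush cell markers had a lower mean in 7 of 8 genes (median -0.44, 1 at that cut-off), between 4.92 and 5.47 with SGC0946 and between 5.31 and 5.82 with DMSO, and astroglial markers in 6 of 8 (median -0.25, 2 lower and 1 higher at that cut-off). Of the granule progenitor markers 7 of 9 had a higher mean (median 0.18, 3 at that cut-off), and microglial markers were 3 higher and 3 lower (median 0.04). The postmitotic granule neuron list had a median of 0.03, between 8.92 and 9.14 with SGC0946 and between 8.95 and 9.06 with DMSO. Endothelial genes were within the olfactory receptor range for 5 of 7 in both groups. *Dot1l* itself read 8.25 and 8.06 with SGC0946, against 8.72 and 8.54 with DMSO. The part of these cells, and of the labelled days in culture, in the values of *Epha3*, *Robo1* and *Dcc* was not tested.

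**Figure D3:**
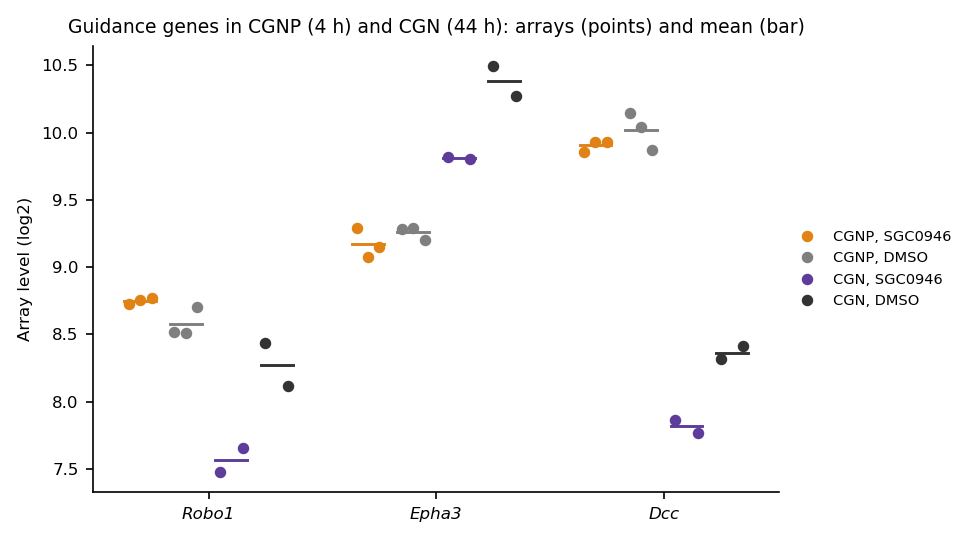
Log2 array level (vertical axis) of the 3 guidance genes at the unadjusted cut-off in CGN, with a point per array and a bar at the group mean, from left to right CGNP with SGC0946, CGNP with DMSO, CGN with SGC0946 and CGN with DMSO. In CGN both SGC0946 points of each gene lie below both DMSO points, and levels of CGNP and CGN appear to have been normalized apart.

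The *Robo1* response was then compared between systems. The response in CGN minus that in CGNP was -0.88 ± 0.21 SE on the log2 scale for *Robo1* (unadjusted p = 0.00092, adjusted p = 0.578 by limma), so the difference was not past the adjusted test, which 0 of all genes passed, while 5.46% of all genes reached the unadjusted cut-off of 0.05. *Epha3* (-0.49), *Dcc* (-0.44) and *Ephb4* (-0.65) also reached it, 4 of 35 in all and all lower, where 3.14% of all genes were. *Ephb4* and *Dcc* no longer did without the DMSO array of mouse 30 in CGNP or without the second DMSO array in CGN, which left 2. CGNP were treated for 4 h and CGN for 44 h, and cell stage and duration cannot be told apart.

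Between the deletion in cerebella and the inhibitor in CGN, the *Robo1* responses differed past the adjusted test. The study already listed *Robo1* from arrays of this series as higher in *Dot1l*-cKO cerebella and lower in CGN with SGC0946. These values are thus not independent evidence. By quantitative PCR it found that its target genes, *Robo1* among them, varied after inhibition in culture. It named only *B3galt5* and *Pcdh17* as matching the cerebella with both of its inhibitors in CGN. The *Dot1l*-cKO response minus the SGC0946 response in CGN was 1.0 ± 0.19 SE on the log2 scale for *Robo1* (95% interval 0.60 to 1.41, limma adjusted p = 0.0365), with 41 of all genes, or 0.185%, past it. *Robo1* was higher in 3 of 3 *Dot1l*-cKO cerebella and lower in 2 of 2 CGN arrays with SGC0946 than any array of the matching controls. The adjusted p by limma ranged between 0.0166 and 0.150 over the alternatives. It was above 0.05 without *Dot1l*-cKO replicate 2 or 3, control replicate 2 or 3, the first DMSO array or the first SGC0946 array of CGN. *Dcc* followed with a difference of 0.81 ± 0.18 SE (limma adjusted p = 0.0773), and *Efna2* (-0.54) and *Efna5* (0.53) reached the unadjusted cut-off, 4 of 35 against 9.86% of all genes (3 higher against 5.18%, and 1 lower against 4.68%). Without control replicate 2 only *Robo1* and *Dcc* did. In these cerebella the oligodendrocyte lineage and pericyte lists had medians of 0.29 and 0.21, against -0.45 and -0.54 with SGC0946 in CGN, and the interneuron and unipolar brush cell list one of 0.58, against -0.44. These lists thus lay on opposite sides of 0, as *Robo1* did, and the difference of responses was positive in all 8 interneuron and unipolar brush cell markers (5 at the unadjusted cut-off, 1 past the adjusted test by limma). The progenitor list lay on opposite sides in the other direction, with a median of -0.41 in *Dot1l*-cKO cerebella, against 0.18 in CGN. Microglial (0.41 and 0.04) and Purkinje cell lists (0.04 and 0.08) lay above 0 in both, while astroglial (0.07 and -0.25) and skeletal muscle lists (0.64 and -0.14) lay on opposite sides. In *Dot1l*-cKO cerebella 2 of 7 oligodendrocyte lineage and 1 of 7 pericyte genes were at the unadjusted cut-off. The part of these lists in the *Robo1* difference was not tested. Mouse strain, age, tissue or culture, and deletion or inhibitor also differ between cerebella and the cultures, and cannot be told apart. Compared with the CGNP response, the *Dot1l*-cKO response was higher in *Slit1* (0.69 ± 0.26 SE) and *Dcc* (0.37 ± 0.16 SE) and lower in *Ntn1* (-0.66 ± 0.24 SE) at the unadjusted cut-off, 3 of 35 against 6.49% of all genes (2.89% higher and 3.6% lower), and none passed the adjusted test, with 14 of all genes, or 0.0631%, past it. Without the DMSO array of mouse 29 only *Ntn1* remained at the cut-off, and without the SGC0946 array of mouse 30 *Efna3* and *Ntn4* joined, 5 in all.

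Promoter sequence is shown for 2 genes that were lower with SGC0946 in CGN, *Robo1* and *Epha3*, and for 2 that differed in *Dot1l*-cKO cerebella, *Efna5* and *Ntn4*. Each is the 250 bases before a transcription start in RefSeq (GRCm38.p6), read 5′ to 3′ on the strand of the gene, with CG dinucleotides, the sites of DNA methylation, in capitals. *Robo1* lies at chr16:72662899-72663148 on the plus strand and is the single *Robo1* start listed, which is inside the span of the gene. *Epha3* lies at chr16:63864176-63864425 on the minus strand, *Efna5* at chr17:62881318-62881567 on the minus strand and *Ntn4* at chr10:93640799-93641048 on the plus strand.
Robo1: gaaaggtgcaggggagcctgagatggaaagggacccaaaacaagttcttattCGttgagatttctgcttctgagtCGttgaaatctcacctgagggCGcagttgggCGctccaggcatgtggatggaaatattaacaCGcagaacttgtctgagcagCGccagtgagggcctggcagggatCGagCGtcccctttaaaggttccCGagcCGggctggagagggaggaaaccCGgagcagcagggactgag
Epha3: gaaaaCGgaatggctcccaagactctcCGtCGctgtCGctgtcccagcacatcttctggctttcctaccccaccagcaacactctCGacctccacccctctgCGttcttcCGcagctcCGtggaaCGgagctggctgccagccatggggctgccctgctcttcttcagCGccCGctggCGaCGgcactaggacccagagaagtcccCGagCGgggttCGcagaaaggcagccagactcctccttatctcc
Efna5: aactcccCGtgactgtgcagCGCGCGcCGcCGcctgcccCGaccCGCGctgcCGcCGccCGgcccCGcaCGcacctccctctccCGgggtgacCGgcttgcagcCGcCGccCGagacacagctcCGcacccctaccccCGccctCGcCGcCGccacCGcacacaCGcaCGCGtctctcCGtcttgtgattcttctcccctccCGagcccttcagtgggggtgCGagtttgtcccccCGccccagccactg
Ntn4: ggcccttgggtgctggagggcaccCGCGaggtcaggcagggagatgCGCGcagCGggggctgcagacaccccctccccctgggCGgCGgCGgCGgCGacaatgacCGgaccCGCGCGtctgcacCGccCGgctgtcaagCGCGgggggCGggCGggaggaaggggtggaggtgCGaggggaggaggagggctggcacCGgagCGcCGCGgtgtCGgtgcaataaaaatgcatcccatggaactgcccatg
The windows of *Robo1* and *Epha3* hold 11 and 16 CG dinucleotides, and those of *Efna5* and *Ntn4* hold 32 and 26. Over 32851 promoter windows of the same length the median was 6, and 9.6% held at least 26. Of the guidance genes 30 had an entry, with 35 windows that held between 4 and 46 and a median of 18. A pair of strings was searched on both strands, GGGCGG, the core of the GC box, and CAGCTG, an E-box of the kind that basic helix-loop-helix factors such as ATOH1 bind. GGGCGG was found in the *Efna5* and *Ntn4* windows and not in those of *Robo1* and *Epha3*, in 26 of the 35 guidance windows and in 32.7% of all windows. CAGCTG was found in none of the 4 printed windows, in 4 of the 35 and in 13.0% of all.

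*Epha3*, *Robo1* and *Dcc* share a long genomic span, of 321, 1020 and 1098 kb in RefSeq. A limit of 300 kb was set after these values were seen, and the following is a description without a test. The guidance genes beyond it include these 3, so the count and median of the longer ones follow in part from that choice. The others beyond it differed by between -0.39 and 0.09 with SGC0946 in CGN. Of the 11 guidance genes that span more than 300 kb, 9 had a lower mean with SGC0946 in CGN (median -0.23), compared with 14 of the 24 shorter ones (median -0.05). Over all genes 61.7% of the 530 longer ones had a lower mean (median -0.07), compared with 51% of the 21609 shorter ones. Length did not go with the difference in each long gene: *Robo2*, with 1555 kb the longest member, differed by -0.06 and *Epha6*, with 969 kb, by 0.05. In *Dot1l*-cKO cerebella the same 11 genes had a median of 0.04, with 3 lower and 8 higher, and the 24 shorter ones one of -0.01. Over all genes in these cerebella 39.1% of the 530 longer ones had a lower mean (median 0.07), compared with 52.5% of the shorter ones. In CGNP the 11 had a median of -0.0043.

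**Figure D4:**
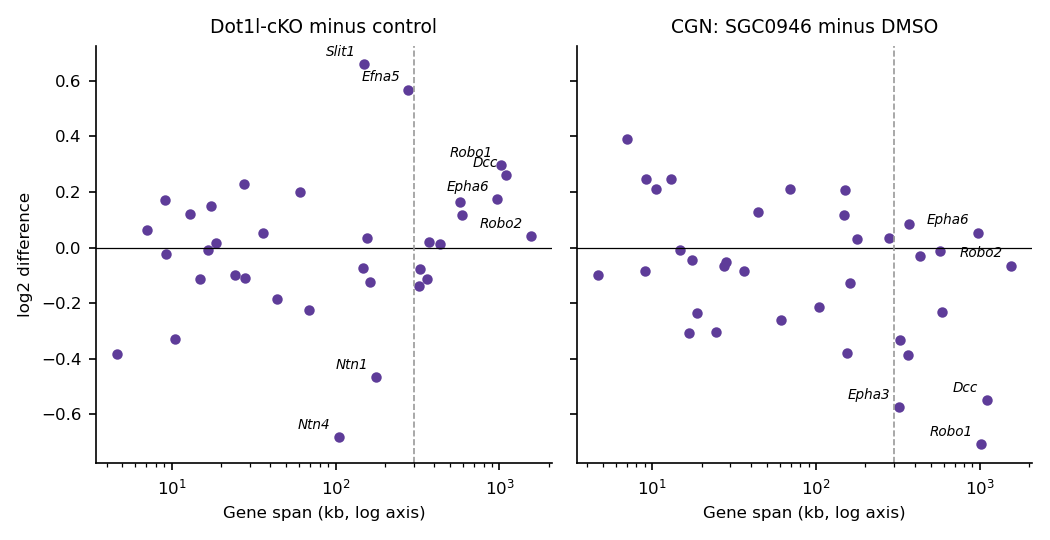
Log2 difference (vertical axis) against gene span in kb (horizontal log axis) for the 35 guidance genes, in *Dot1l*-cKO cerebella on the left and in CGN with SGC0946 on the right, with a dashed line at 300 kb. In CGN, *Robo1*, *Dcc* and *Epha3* lie lowest and right of the line, while *Robo2* and *Epha6* lie right of it near 0.

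Between CGN and CGNP, both with DMSO, 9 of the 35 guidance genes differed at least 2-fold without overlap, against 13.9% of all genes. Of these 3 were higher in CGN (background 2.75%) and 6 lower (background 11.2%). This comparison is given without a test, because the value distributions differed more between the experiments than within them, as they do after separate normalization, and the median over all genes was -0.23 on the log2 scale. The 3 higher genes encode receptors, and the 6 lower ones encode 5 ligands and the receptor DCC. This split did not hold among genes without overlap but less than 2-fold apart. There the ligands *Slit2* (0.71) and *Slit3* (0.64), within the olfactory receptor range in CGNP, were higher, and *Efnb3*, *Ntn4* and *Efna1* lower. Of the receptors there, *Epha8* and *Unc5d* were higher, and *Unc5b* (-0.45), *Ephb1* (-0.37), *Robo1* (-0.30) and *Epha10* lower.

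The higher genes were 2 EphA receptors and a Robo receptor. *Epha7* read 9.02 and 8.76 in CGN, against 7.25, 7.35 and 7.42 in CGNP, a difference of 1.55. *Epha3* read 10.50 and 10.27 in CGN, against 9.28, 9.29 and 9.20 in CGNP, a difference of 1.13. *Robo2* read 11.05 and 11.02 in CGN, against 10.06, 9.76 and 9.86 in CGNP, a difference of 1.14. The gap between the culture types was wider than the spread within either in all 3 genes.

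Ephrins made up 4 of the 6 lower genes. *Efna2* read 6.13 and 6.10 in CGN, against 8.02, 7.63 and 7.76 in CGNP, a difference of -1.69. *Efna4* read 4.17 and 4.65 in CGN, within the olfactory receptor range, against 5.39, 5.82 and 5.77 in CGNP, a difference of -1.25. *Efna3* read 5.02 and 5.07 in CGN, against 6.26, 6.18 and 5.87 in CGNP, a difference of -1.06. *Efna1*, *Efna3* and *Efna4* neighbour each other on chromosome 3, and *Efna1* was lower by less (-0.39). *Efnb1* read 6.51 and 6.09 in CGN, against 7.27, 7.48 and 7.65 in CGNP, a difference of -1.17. All 5 ephrins-A and all 3 ephrins-B had a lower mean in CGN, with medians of -1.06 and -0.96. A lower mean was found in 24 of the 35 guidance genes, and the median over all genes was -0.23. *Efnb2* differed by about as much as that median (-0.23, with overlap), and *Efna5* averaged 7.01 in both.

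The netrin *Ntn1* and its receptor *Dcc* were the others. *Ntn1* read 5.84 and 6.22 in CGN, against 6.97, 7.33 and 7.31 in CGNP, a difference of -1.17. *Dcc* read 8.32 and 8.41 in CGN, against 10.15, 10.04 and 9.87 in CGNP, a difference of -1.65 and thus of the opposite sign to *Epha3*, although both were lower with SGC0946 in CGN. *Robo1* read 8.43 and 8.11 in CGN, against 8.52, 8.51 and 8.70 in CGNP, a difference of -0.30. The receptors *Neo1*, *Unc5a* and *Unc5c* differed by between -0.02 and 0.06, and *Unc5b* by -0.45 and *Unc5d* by 0.27, both without overlap and less than 2-fold. After joint quantile normalization of the cultures the 3 higher genes stayed above 2-fold (1.69 to 2.07), and of the lower ones *Efna2*, *Efna4* and *Dcc* did (-1.34, -1.13 and -1.10).

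**Figure D5:**
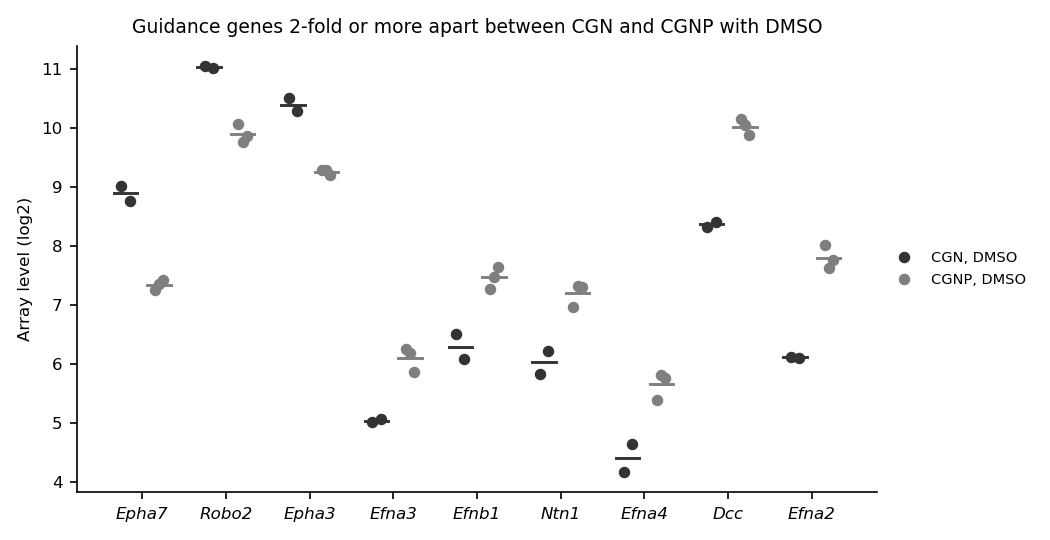
Log2 array level (vertical axis) of the 9 guidance genes at least 2-fold apart between CGN and CGNP with DMSO, ordered by their difference, with a point per array and a bar at the group mean, CGN left of CGNP. The 3 genes on the left are higher in CGN and the 6 on the right lower, without overlap.

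Of 56 measured partners and effectors of these pathways, none passed the adjusted test in a treatment or deletion comparison by limma. In *Dot1l*-cKO cerebella 4 were higher and 1 lower at the unadjusted cut-off, 8.93% against 8.69% of all genes. They were *Dscaml1* (0.44), *Rgmb* (0.40), *Chn1* (0.28), *Enah* (0.26) and *Vasp* (-0.48), without overlap in each. *Dscaml1* is an adhesion molecule related to the netrin receptor DSCAM, RGMB a ligand of neogenin, CHN1 a Rac regulator downstream of EphA4, and ENAH and VASP extend actin filaments. In CGNP 2 were higher with SGC0946 at the cut-off, *Vasp* (0.48) and *Grip2* (0.37), and 2 lower, *Maged1* (-0.20) and *Prrg4* (-0.40), 7.14% of the list against 4.08% of all genes, and of the 4 *Vasp* was the one without overlap. GRIP2 is a scaffold protein that binds ephrins-B, and MAGED1 binds an UNC5 receptor. In CGN 3 were lower, *Rgmb* (-0.61), *Ntng2* (-0.60) and *Ext1* (-0.34), and *Flrt3* was higher (0.70), 7.14% of the list against 7.48% of all genes. Netrin-G2 is a membrane-anchored relative of the netrins, EXT1 builds the heparan sulfate to which Slits bind, and FLRT3 is a coreceptor of ROBO1. *Rgmb* thus differed in opposite directions in *Dot1l*-cKO cerebella and in CGN with SGC0946, as *Robo1* did (difference of responses 1.02 ± 0.21 SE, limma adjusted p = 0.0502). Between CGN and CGNP with DMSO 4 partners were at least 2-fold higher, *Dscam* by 2.59 and *Chn2* by 2.06 on the log2 scale among them, and 12 lower, 16 of 56 in all, against 2.75% higher, 11.2% lower and 13.9% in all over all genes.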

How the data were processed

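Affymetrix Mouse Gene 2.0 ST arrays measured the RNA. The deposited log2 signals were made by the authors in Partek, per the labels, by RMA with quantile normalization (version not given in the sources used here). Sorted values differed by 0.00842 to 0.0763 within the 3 experiments and by 0.193 to 0.452 between them, so levels were tested within experiments only. The authors' own comparison tables hold p-values, q-values and fold changes that were not used. A pair of CGN arrays whose title and description name opposite treatments entered no comparison.

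Of 34472 clusters, 23521 have 1 gene symbol, 1820 several and 9131 none listed. Each of 22180 genes was read from its brightest cluster (1082 have several), and dim genes were kept. Groups were compared by limma 3.58.1 in R 4.3.3 with trended eBayes. Separate fits served the cerebella and the 10 culture arrays, and a fit of all 16 arrays the differences of responses. The adjusted test is a Benjamini-Hochberg p below 0.05 over all genes, and the unadjusted cut-off a p of at most 0.05. The median SE of a log2 difference over the guidance genes was 0.17 in cerebella, 0.16 in CGNP and 0.20 in CGN, and the number of arrays limits the precision. The fits were tested on simulated data.

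By the labels both CGNP treatments came from the same mice, so the numbers pair these samples. The correlations of same-numbered deviations were 0.013, 0.035 and 0.0096. A fit with the culture as a replicate block was an alternative.

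Values are given per array for guidance genes at a cut-off without overlap, or at least 2-fold apart between CGN and CGNP, and for some others that were chosen after their values were seen. Members and lists were chosen with earlier results of these data known. Promoters came from RefSeq (GRCm38.p6). Other alternatives were scalings, variance models, filters, clusters and arrays left out.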

Additional observations from a re-analysis of the deposited data

Results flagged for a closer look

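Under SGC0946 the 3 treated CGNP arrays of *Robo1* all lay above the DMSO arrays (log2 change 0.18), and the 2 treated CGN arrays both below theirs (log2 change -0.71). The difference of these responses was -0.88 ± 0.21 SE (unadjusted p = 0.00092, adjusted p = 0.578 by limma), which does not pass the adjusted test. No other guidance gene separated in opposite directions in the 2 kinds of culture. The gap between the *Robo1* groups in CGNP was 0.03 (unadjusted p = 0.208 by limma). Over all genes, 9.78% were without overlap in CGNP and 34.1% in CGN, and the share that separated in opposite directions was not counted.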

How the results depend on the processing

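Of 255 values of single guidance genes under an alternative, 0 changed sign, 13 lost their call and 12 moved by more than the spread between arrays without a test. For the *Dot1l*-cKO response minus a culture response the call was the adjusted test, so losses of the unadjusted cut-off there are not among the 13. Single genes of the CGN minus CGNP response are not among the 255. No guidance gene passed the adjusted test in the deletion or treatment comparisons under any alternative run. A further quantile normalization raised the count at the unadjusted cut-off in *Dot1l*-cKO cerebella to 8, against 5. With 1 array left out, that count was 4 to 6 in cerebella, 0 to 2 in CGNP and 3 to 5 in CGN. For the CGN minus CGNP response it was 2 to 4, for the *Dot1l*-cKO minus CGN response 2 to 5 and for the *Dot1l*-cKO minus CGNP response 1 to 5. The *Dot1l*-cKO minus CGN difference of *Robo1* was past the adjusted test in 6 of 12 alternatives, and leaving out 1 array gave 0 or 1 guidance genes past it. With the replicate block in CGNP, 0 guidance genes passed either limit, and the block changed no call. Between CGN and CGNP, leaving out 1 array gave 8 to 10 genes at least 2-fold apart, and joint quantile normalization 6, with 3 higher and 3 lower and a median over all genes of -0.01. The cause of these shifts was not tested. Over all genes, those past the adjusted test numbered 0 with the ordinary variance in cerebella, CGNP and CGN, against 5, 7 and 34, and 257 in CGN without the second SGC0946 array. When a CGN arm is left with 1 array, that array is assumed to vary like the others. The small number of arrays, the labelled days in culture and the 9 genes within the olfactory receptor range in each kind of culture limit these comparisons.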

Other observations

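The pair of CGN arrays whose labels name opposite treatments (DMSO in the title and SGC0946 in the description at day 3, and the reverse at day 6) gave, at 3 and 6 labelled days in vitro, 8.55 and 7.86 for *Robo1*, 10.71 and 10.09 for *Epha3*, 8.60 and 7.93 for *Dcc* and 9.19 and 8.61 for *Epha7*. In each of these genes the array of day 3 read higher than that of day 6. The 4 arrays with a treatment read 7.48 and 7.66 for *Robo1* with SGC0946 at days 5 and 7, against 8.43 and 8.11 with DMSO at days 2 and 4, so over the 6 arrays the 3 of days 2 to 4 all read above the 3 of days 5 to 7 in *Robo1*. By the titles this is also the split between DMSO and SGC0946, and the 2 cannot be told apart. For *Slit1* the pair read 4.32 and 4.22, within the olfactory receptor range, for *Efna2* 5.92 and 6.19 and for *Ntn1* 5.89 and 5.73.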
